A study of Mus musculus with 10 samples.

Results

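The DNA damage response and repair genes described here are 35 named genes, chosen by symbol from the 56748 genes of a table of RNA sequencing values from mouse gastric tumours. All 35 were found, each as a single row. The 10 tumours were labelled as 5 of an inflamed type and 5 of a desert type, with 1 library each. The inflamed tumours, called APTc in the labels, carried the genotype Tff1-CreERT2;Apcfl/fl;Trp53fl/fl. In that model a Cre recombinase, which needs tamoxifen to act, is driven by Tff1, a gene of the gastric surface mucous lineage, and deletes floxed parts of the tumour suppressor genes Apc and Trp53 in the cells where it is active. The desert tumours, called MDA, were orthotopic allografts with the genotype given as wild type. Which cells were grafted, whether they were a single line, whether the genotype describes the host or the graft, and the age and sex of the mice are not stated in the labels. Type of tumour therefore coincided with genotype and with how tumours arose, and these cannot be told apart. The labels number the tumours but do not say that each came from a separate mouse, so p-values measure the spread between these samples. The protocol text speaks of fewer tumours than were deposited, and all 10 were used.

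Cells meet DNA damage with a signalling layer and with several repair routes. The Mre11-Rad50-Nbn complex senses breaks and recruits the kinase Atm, whereas Atr is recruited to stretches of single-stranded DNA, and these kinases activate mainly the checkpoint kinases Chek2 (Atm) and Chek1 (Atr). Breaks of both strands are repaired by homologous recombination, which copies a sister chromatid and works mainly in S and G2 phase, or by end joining, which works throughout the cell cycle. Crosslinks between strands need the Fanconi anaemia proteins. Single damaged bases are removed by base excision, bulky lesions by nucleotide excision, replication errors by mismatch repair, and some alkylated bases are restored directly. Many genes of recombination and of the Fanconi pathway are transcribed mainly in S phase under E2F factors, so their RNA level in a tissue also follows the share of dividing cells.

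Promoter sequences from RefSeq (build GRCm38.p6, 250 bases before to 50 after a transcription start) were matched by symbol for 28 of the 35 members. They were searched on both strands for an E2F-type motif, spelled as TTTCCCGC, TTTGGCGC, TTTGCCGC or TTTCGCGC, a choice made after the expression values had been seen. These letters were in a promoter of 6 members (21.4% of the 28), namely Chek2, Brca2, Bard1, Msh6, Rad51c and Xrcc6, and in a promoter of 2.60% of the 27025 genes in the sequence table. The promoters of 4 of them are shown because the motif stood in members that went different ways: Bard1 and Msh6 were lower in inflamed tumours, Chek2 was higher and Brca2 was not called. Capitals mark the motif as read on the printed strand, where GCGGGAAA is TTTCCCGC on the other strand. The windows are chr1:71102923-71103222 on the minus strand for Bard1, chr17:87974800-87975099 on the plus strand for Msh6, chr5:110839733-110840032 on the plus strand for Chek2 and chr5:150522371-150522670 on the plus strand for Brca2.
Bard1: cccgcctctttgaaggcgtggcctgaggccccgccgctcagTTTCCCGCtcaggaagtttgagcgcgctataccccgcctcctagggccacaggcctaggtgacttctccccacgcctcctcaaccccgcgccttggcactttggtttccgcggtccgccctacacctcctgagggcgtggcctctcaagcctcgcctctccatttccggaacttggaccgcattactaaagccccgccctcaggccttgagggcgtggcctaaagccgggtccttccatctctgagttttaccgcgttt
Msh6: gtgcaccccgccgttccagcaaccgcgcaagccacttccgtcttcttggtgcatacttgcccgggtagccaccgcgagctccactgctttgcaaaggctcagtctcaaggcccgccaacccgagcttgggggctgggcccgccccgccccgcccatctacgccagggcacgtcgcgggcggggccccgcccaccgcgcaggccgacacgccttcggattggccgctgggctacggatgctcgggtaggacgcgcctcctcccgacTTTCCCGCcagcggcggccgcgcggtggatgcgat
Chek2: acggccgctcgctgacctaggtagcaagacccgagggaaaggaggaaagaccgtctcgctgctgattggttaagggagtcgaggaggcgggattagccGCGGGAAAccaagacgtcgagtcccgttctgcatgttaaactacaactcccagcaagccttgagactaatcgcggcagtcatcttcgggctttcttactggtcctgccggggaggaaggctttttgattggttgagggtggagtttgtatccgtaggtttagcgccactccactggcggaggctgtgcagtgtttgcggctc
Brca2: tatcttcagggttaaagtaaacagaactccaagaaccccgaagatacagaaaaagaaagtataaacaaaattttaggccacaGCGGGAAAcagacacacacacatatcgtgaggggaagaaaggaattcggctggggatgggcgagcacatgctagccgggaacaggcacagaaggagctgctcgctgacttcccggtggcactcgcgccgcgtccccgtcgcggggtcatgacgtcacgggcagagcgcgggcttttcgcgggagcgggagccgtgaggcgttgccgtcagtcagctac
The first base of the motif lay at position -209 in Bard1, -152 in Chek2, -168 in Brca2 and 15 in Msh6, counted in bases from the transcription start along the printed strand. A match is a description of the letters and not of binding. Of the 6 members that held the motif, 3 were called lower, 1 higher and 2 not. Of the 28 members with a promoter, 14 were called lower. With 6 members it cannot be told whether the motif goes with direction.

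Expression was given as FPKM, reads divided by the length of the gene and the size of the library, so levels can be compared between genes per length. The libraries held 15474313 to 15975770 reads in genes in inflamed and 14148147 to 16951640 in desert tumours, as recovered from the FPKM steps. Values per tumour are given in the order of the tumour numbers. Between 22 and 5126 reads lay behind each value of a member. Markers set the tumours apart in cell makeup. Of 8 gastric epithelial markers, 7 were higher in inflamed tumours, and their summed level was 7756 to 42035 FPKM across the inflamed and 13.4 to 39.0 FPKM across the desert tumours, so the desert tumours, although labelled as gastric, held these transcripts at low levels. General epithelial markers were present in both types, with 5 of 7 higher in inflamed tumours and sums of 3448 to 6540 FPKM in the inflamed against 1602 to 2340 FPKM in the desert tumours. Of 9 tested leukocyte markers 8 were higher in inflamed tumours, with sums over all 10 listed of 87.5 to 324 FPKM in inflamed and 5.03 to 9.73 FPKM in desert tumours, and Ms4a1, a B cell marker, was listed at 0 in all 5 desert tumours. Of the stromal markers, 2 of 3 for smooth muscle were higher in inflamed tumours, with sums of 21.8 to 449 FPKM in the inflamed and 1.26 to 36.4 FPKM in the desert tumours, as were 2 of 3 for endothelium. Of 6 fibroblast markers 2 were higher and 0 lower, and 2 of the uncalled ones had negative differences. That share lies near the 31% of all tested genes that were higher. The part of cell makeup in the differences below was not tested. In whole tumours, fewer cells of a type and less RNA per cell cannot be told apart.

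**Figure D1:**
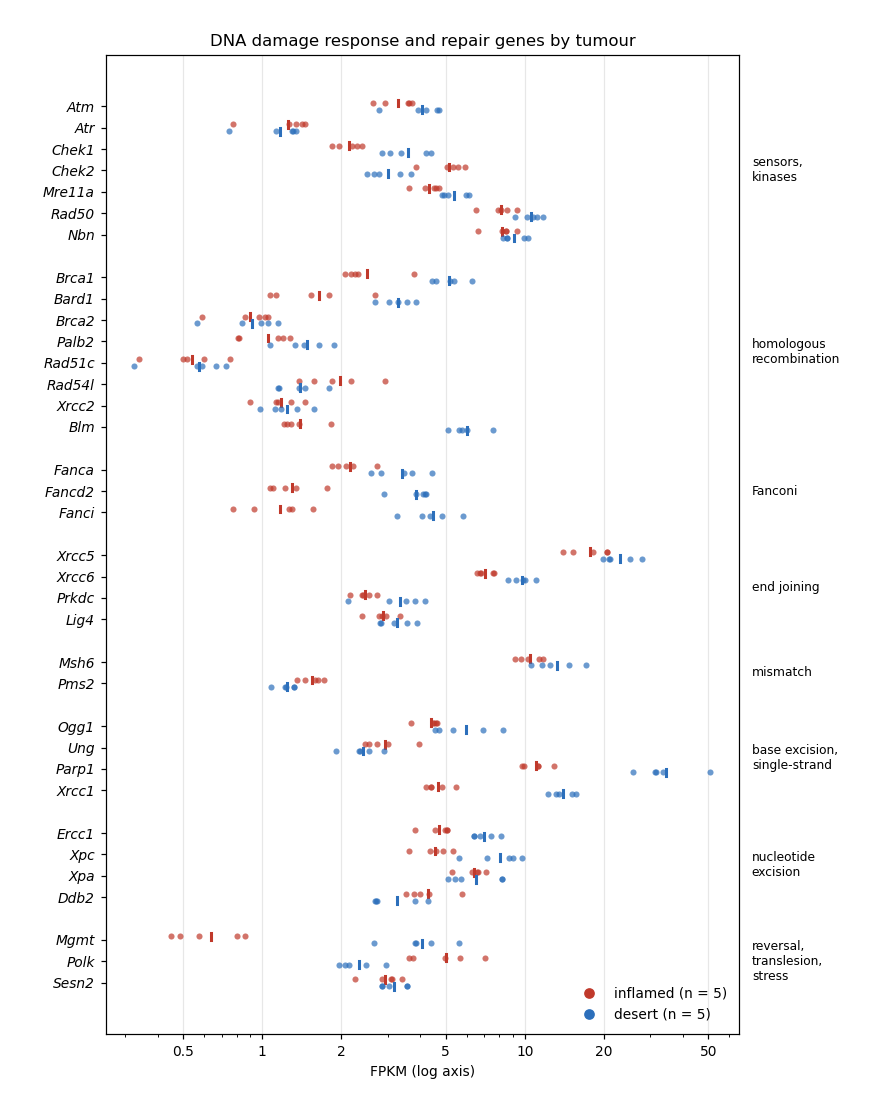
FPKM of the 35 members in each tumour on a log axis, grouped by role, with inflamed tumours (red) above desert tumours (blue) for each gene. Points are single tumours and short bars are means of 5. Blm, Fanci, Fancd2, Xrcc1, Parp1 and Mgmt show a clear gap between the groups, whereas Brca2, Rad51c, Xrcc2 and Xpa overlap almost fully.

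The comparison asked how the members differ between the tumour types. Of the 35 members, 17 (48.6%) were lower and 2 (5.71%) higher in inflamed tumours by limma on log2(FPKM + 1), at a Benjamini-Hochberg adjusted p under 0.05 over all genes, and 16 did not pass. Over all 16750 tested genes 31.2% were lower, 31% higher and 62.2% called in either direction, so the share of members called lower was above the background and the share called higher below it. The median log2 difference of the members was -0.31, against -0.0072 for all tested genes. The groups did not overlap in 15 members, 12 lower and 3 higher, which is 42.9% of the members against a background of 48.9% (24.4% in each direction). All 35 passed the filter of a mean of 0.5 FPKM. Among the members, only Blm, Xrcc1, Parp1 and Mgmt also passed a test for a difference of more than 2-fold in FPKM + 1. Of all genes 3.84% passed it as lower and 6.79% as higher. The added 1 makes differences of low genes smaller in this test. Fanci and Fancd2 did not pass, although their mean FPKM was 3.83-fold and 2.96-fold higher in desert than in inflamed tumours. Rescaling to TPM, which gives every library the same sum, moved the median of all tested genes to -0.28, and then 23 members were lower and 2 higher, against 41.7% and 22.5% of all genes.

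**Figure D2:**
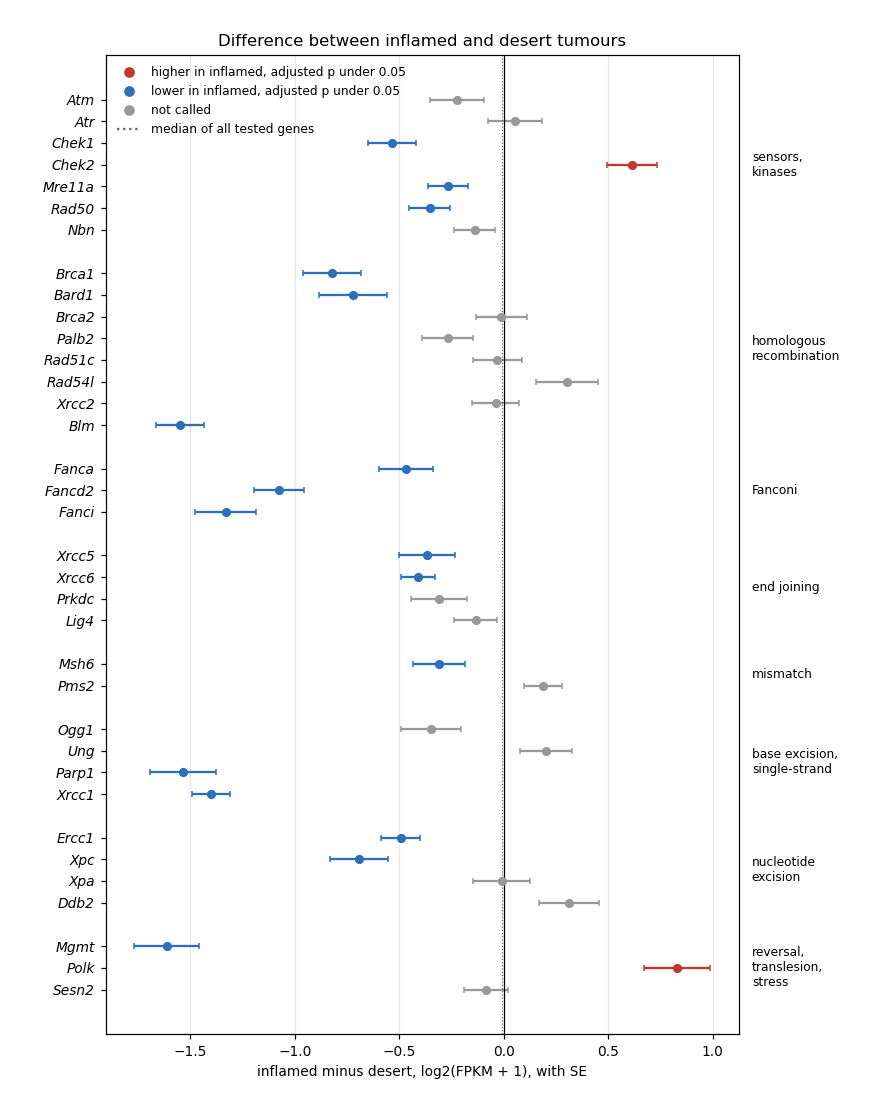
Log2 difference of each member, inflamed minus desert, on the log2(FPKM + 1) scale, with the standard error of the limma fit as bars. Blue points are the 17 members lower and red points the 2 members higher in inflamed tumours at an adjusted p under 0.05, grey points the 16 not called, and the dotted line the median of all tested genes on the same scale (-0.0072).

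Direct reversal and translesion synthesis held both extremes of the set. Mgmt (ENSMUSG00000054612, chromosome 7, 136496343 to 136731995 in the deposited table), which takes alkyl groups off guanine in a reaction that uses the protein up, was at 0.804, 0.451, 0.573, 0.863 and 0.485 FPKM in the inflamed tumours 1 to 5, against 2.66, 3.80, 3.86, 4.40 and 5.61 FPKM in the 5 desert tumours. The groups did not overlap, and the ratio of the means, inflamed over desert, was 0.156 (difference -1.61 on the log2 scale, SE 0.16, limma adjusted p = 6.20e-06). It ranked 34 of 35 by level in inflamed and 16 in desert tumours. Polk (ENSMUSG00000021668, chromosome 13, 96617198 to 96679087), a translesion polymerase that copies past bulky guanine adducts, was at 3.62, 3.75, 4.96, 7.04 and 5.68 FPKM in the inflamed tumours 1 to 5, against 2.97, 2.48, 2.15, 2.07 and 1.97 FPKM in the 5 desert tumours. All inflamed tumours lay above all desert tumours, with tumours 4 and 5 the highest (difference 0.83 on the log2 scale, SE 0.16, limma adjusted p = 9.21e-04). Polk moved the most places in the order of levels, ranking 9 in inflamed and 28 in desert tumours. Sesn2, a stress-induced regulator of mTORC1 that p53 can activate, was at 2.25 to 3.42 FPKM in the inflamed and 2.86 to 3.57 FPKM in the desert tumours and was not called (difference -0.09 on the log2 scale, SE 0.11, limma adjusted p = 0.496).

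Base excision and single-strand break repair held a pair of partners that were both far lower in inflamed tumours. Parp1 (ENSMUSG00000026496, chromosome 1, 180396489 to 180428819), the polymerase that marks strand breaks with poly(ADP-ribose), was at 11.2, 11.2, 9.74, 9.92 and 12.97 FPKM in the inflamed tumours 1 to 5, against 25.7, 31.3, 31.5, 50.9 and 33.5 FPKM in the 5 desert tumours. It was the most abundant member in desert tumours, with desert tumour 4 the highest, and the groups were far apart (difference -1.54 on the log2 scale, SE 0.16, limma adjusted p = 1.04e-05). Xrcc1 (ENSMUSG00000051768, chromosome 7, 24245714 to 24272865), the scaffold that Parp1 brings to a nick, was at 4.40, 4.40, 4.20, 4.83 and 5.47 FPKM in the inflamed tumours 1 to 5, against 15.2, 12.2, 13.5, 13.2 and 15.6 FPKM in the 5 desert tumours. Its values were tight within each type (difference -1.40 on the log2 scale, SE 0.09, limma adjusted p = 3.38e-07). The enzymes that cut out the damaged base were not called. Ogg1, which removes oxidised guanine, was at 4.38 ± 0.391 FPKM in the inflamed and 5.96 ± 1.60 FPKM in the desert tumours (SD, n = 5 each) and missed the threshold (difference -0.35 on the log2 scale, SE 0.14, limma adjusted p = 0.0551). It passed in 8 of 24 alternatives, among them rescaling to TPM (limma adjusted p = 0.00524). It also passed once desert tumour 1 (adjusted p = 0.033) or desert tumour 2 (adjusted p = 0.0284) was left out, with 0.00524 to 1 over its alternatives. Here and below, such an upper end came from the test for a difference of more than 2-fold. Ung, which removes uracil, was at 2.46 to 3.97 FPKM in the inflamed and 1.91 to 2.91 FPKM in the desert tumours (difference 0.20 on the log2 scale, SE 0.12, limma adjusted p = 0.174).

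All 3 Fanconi anaemia members were lower in inflamed tumours. Fanci (ENSMUSG00000039187, chromosome 7, 79041677 to 79100012), one subunit of the clamp that closes on DNA at a crosslink, was at 0.934, 1.26, 1.30, 0.774 and 1.57 FPKM in the inflamed tumours 1 to 5, against 4.36, 5.82, 4.07, 3.27 and 4.85 FPKM in the 5 desert tumours. Every inflamed tumour lay below every desert tumour (difference -1.33 on the log2 scale, SE 0.15, limma adjusted p = 1.63e-05). Fancd2, the other subunit of that clamp, was at 1.07, 1.10, 1.22, 1.35 and 1.76 FPKM in the inflamed tumours 1 to 5, against 2.91, 4.20, 3.87, 4.09 and 4.16 FPKM in the 5 desert tumours. Here too there was no overlap (difference -1.08 on the log2 scale, SE 0.12, limma adjusted p = 1.72e-05). Fanca, a subunit of the core complex that ubiquitinates the clamp, was at 1.85, 1.95, 2.22, 2.08 and 2.73 FPKM in the inflamed tumours 1 to 5, against 3.73, 4.42, 2.82, 3.46 and 2.59 FPKM in the 5 desert tumours. In this gene the groups overlapped, with inflamed tumour 5 above desert tumour 5 (difference -0.47 on the log2 scale, SE 0.13, limma adjusted p = 0.00884).

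In homologous recombination Blm, Brca1 and Bard1 were lower in inflamed tumours and 5 of the 8 members were not called. Blm (ENSMUSG00000030528, chromosome 7, 80104481 to 80184867), a RecQ helicase that dissolves joined DNA intermediates, was at 1.24, 1.28, 1.38, 1.21 and 1.83 FPKM in the inflamed tumours 1 to 5, against 6.04, 7.58, 5.63, 5.09 and 5.74 FPKM in the 5 desert tumours. The ratio of the means, inflamed over desert, was 0.231 (difference -1.55 on the log2 scale, SE 0.11, limma adjusted p = 8.15e-07). Brca1, a ubiquitin ligase that promotes end resection, was at 2.06, 2.31, 2.25, 2.18 and 3.77 FPKM in the inflamed tumours 1 to 5, against 5.35, 6.28, 4.41, 4.57 and 5.18 FPKM in the 5 desert tumours. Inflamed tumour 5 was the highest of its group but stayed below all desert tumours (difference -0.82 on the log2 scale, SE 0.14, limma adjusted p = 3.42e-04). Bard1, its obligate partner, was at 1.12, 1.53, 1.07, 1.80 and 2.70 FPKM in the inflamed tumours 1 to 5, against 3.57, 3.84, 2.68, 3.29 and 3.03 FPKM in the 5 desert tumours. The same inflamed tumour was highest and just exceeded the lowest desert tumour (difference -0.72 on the log2 scale, SE 0.16, limma adjusted p = 0.00246). The other members of the route were not called. Brca2, a tumour suppressor that acts after end resection, was at 0.857, 1.05, 1.03, 0.588 and 0.972 FPKM in the inflamed tumours 1 to 5, against 0.841, 1.05, 0.988, 0.563 and 1.14 FPKM in the 5 desert tumours. The groups overlapped, with tumour 4 the lowest of each type (difference -0.01 on the log2 scale, SE 0.12, limma adjusted p = 0.942). Palb2, the bridge between Brca1 and Brca2, was at 1.05 ± 0.222 FPKM in the inflamed and 1.47 ± 0.304 FPKM in the desert tumours (SD, n = 5 each). It was not called (difference -0.27 on the log2 scale, SE 0.12, limma adjusted p = 0.0773). It passed in 4 of 22 alternatives, among them rescaling to TPM (limma adjusted p = 0.0146). Leaving out desert tumour 4 was another (adjusted p = 0.0374, range 0.0105 to 1 over its alternatives). Rad51c was at 0.339 to 0.752 FPKM in the inflamed and 0.326 to 0.725 FPKM in the desert tumours (adjusted p = 0.838). Xrcc2, which also acts in strand exchange, was at 0.894 to 1.46 FPKM in the inflamed and 0.977 to 1.58 FPKM in the desert tumours (adjusted p = 0.784). Rad54l, a motor protein that drives strand exchange, was at 1.38, 1.85, 1.58, 2.17 and 2.93 FPKM in the inflamed tumours 1 to 5, against 1.38, 1.80, 1.15, 1.45 and 1.16 FPKM in the 5 desert tumours. Its values ran in the other direction without a call (difference 0.30 on the log2 scale, SE 0.15, limma adjusted p = 0.0939). A call as higher was made once inflamed tumour 1 was left out (adjusted p = 0.0471, range 0.0471 to 1 over its alternatives).

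The checkpoint kinases went in opposite directions. Chek1, the target of Atr at stalled forks, was at 1.96, 2.30, 1.85, 2.20 and 2.40 FPKM in the inflamed tumours 1 to 5, against 4.40, 4.20, 2.87, 3.07 and 3.38 FPKM in the 5 desert tumours. All inflamed tumours were below all desert tumours (difference -0.54 on the log2 scale, SE 0.12, limma adjusted p = 0.00199). Chek2 (ENSMUSG00000029521, chromosome 5, 110987845 to 111022011), the target of Atm at double-strand breaks, was at 3.84, 5.04, 5.55, 5.91 and 5.33 FPKM in the inflamed tumours 1 to 5, against 2.67, 3.69, 2.50, 2.79 and 3.36 FPKM in the 5 desert tumours. Inflamed tumours were all higher, although inflamed tumour 1 and desert tumour 2 lay close (difference 0.62 on the log2 scale, SE 0.12, limma adjusted p = 0.00106). Their upstream kinases were not called. Atm was at 3.30 ± 0.482 FPKM in the inflamed and 4.05 ± 0.777 FPKM in the desert tumours (SD, n = 5 each) with a limma adjusted p = 0.155. Atr was at 1.25 ± 0.278 FPKM in the inflamed and 1.17 ± 0.250 FPKM in the desert tumours (SD, n = 5 each) with a limma adjusted p = 0.733. Atm was called lower in 3 of 23 alternatives, among them rescaling to TPM (limma adjusted p = 0.0289). Leaving out desert tumour 1 was another (adjusted p = 0.0236, range 0.00259 to 1 over its alternatives). In the sensor complex Rad50 and Mre11a were slightly lower in inflamed tumours. Rad50, its coiled-coil ATPase, was at 7.92, 8.56, 8.12, 6.53 and 9.32 FPKM in the inflamed tumours 1 to 5, against 10.7, 11.1, 10.2, 9.17 and 11.7 FPKM in the 5 desert tumours. The groups overlapped only through inflamed tumour 5 and desert tumour 4 (difference -0.35 on the log2 scale, SE 0.10, limma adjusted p = 0.00837). Mre11a, its nuclease, was at 4.31 ± 0.440 FPKM in the inflamed and 5.40 ± 0.609 FPKM in the desert tumours (SD, n = 5 each). The groups did not overlap (difference -0.27 on the log2 scale, SE 0.09, limma adjusted p = 0.0282). This call was lost when inflamed tumour 3, inflamed tumour 4, desert tumour 2 or desert tumour 4 was left out (adjusted p = 0.0571, 0.0611, 0.0694 and 0.063, with 1.67e-04 to 1 over its alternatives). Nbn, which tethers Atm to the complex, was at 6.64 to 9.35 FPKM in the inflamed and 8.24 to 10.3 FPKM in the desert tumours and not called (difference -0.14 on the log2 scale, SE 0.10, limma adjusted p = 0.243).

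In end joining, the Ku subunits were lower in inflamed tumours by small amounts. Xrcc6, which encodes Ku70, was at 6.76, 7.58, 6.84, 6.56 and 7.64 FPKM in the inflamed tumours 1 to 5, against 9.23, 11.1, 8.62, 10.04 and 9.85 FPKM in the 5 desert tumours. The groups did not overlap (difference -0.41 on the log2 scale, SE 0.08, limma adjusted p = 0.00109). Xrcc5, which encodes Ku80, was the most abundant member in inflamed tumours, at 20.5, 20.6, 18.2, 13.9 and 15.2 FPKM in the inflamed tumours 1 to 5, against 19.9, 25.1, 20.8, 28.01 and 21.1 FPKM in the 5 desert tumours. The values overlapped, with inflamed tumours 4 and 5 the lowest (difference -0.37 on the log2 scale, SE 0.13, limma adjusted p = 0.0324). Xrcc5 no longer passed when inflamed tumour 4, inflamed tumour 5, desert tumour 2 or desert tumour 4 was left out (adjusted p = 0.0718, 0.0764, 0.0729 and 0.0745, with 0.00740 to 1 over its alternatives). Prkdc, the kinase that Ku recruits, was at 2.16, 2.55, 2.74, 2.42 and 2.40 FPKM in the inflamed tumours 1 to 5, against 2.12, 3.04, 4.17, 3.54 and 3.82 FPKM in the 5 desert tumours. Desert tumour 1 was the lowest of all 10, and the gene was not called (difference -0.31 on the log2 scale, SE 0.14, limma adjusted p = 0.0665). Without that tumour it was called lower (-0.42, adjusted p = 0.00452, with 0.00452 to 1 over its alternatives). Prkdc was called lower in 5 of 23 alternatives, among them rescaling to TPM (limma adjusted p = 0.0130). Lig4, the ligase of the pathway, was at 2.41 to 3.35 FPKM in the inflamed and 2.81 to 3.90 FPKM in the desert tumours (difference -0.13 on the log2 scale, SE 0.10, limma adjusted p = 0.283).

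Excision of bulky lesions held 2 members that were lower in inflamed tumours and 2 that were not called. Xpc, which recognises distorted helices, was at 4.88, 4.36, 5.32, 3.64 and 4.58 FPKM in the inflamed tumours 1 to 5, against 5.61, 7.16, 8.72, 9.76 and 9.04 FPKM in the 5 desert tumours. The groups did not overlap (difference -0.69 on the log2 scale, SE 0.14, limma adjusted p = 0.00125). Ercc1, a subunit of the nuclease that cuts on the 5′ side, was at 5.06, 3.83, 4.56, 5.07 and 4.95 FPKM in the inflamed tumours 1 to 5, against 6.39, 7.42, 6.73, 6.42 and 8.08 FPKM in the 5 desert tumours. Again no tumour overlapped (difference -0.49 on the log2 scale, SE 0.09, limma adjusted p = 8.74e-04). Xpa, which verifies the lesion, was at 6.38 ± 0.686 FPKM in the inflamed and 6.52 ± 1.53 FPKM in the desert tumours (SD, n = 5 each). Ddb2, which finds ultraviolet photoproducts in chromatin and is a p53 target in human cells, was at 4.27 ± 0.876 FPKM in the inflamed and 3.25 ± 0.750 FPKM in the desert tumours (SD, n = 5 each). Neither was called (adjusted p = 0.958 and 0.0788), but Ddb2 passed as higher once desert tumour 3 was left out (adjusted p = 0.0335, with 0.0335 to 1 over its alternatives). Of the mismatch repair members, Msh6, which recognises base mismatches, was at 9.69, 10.3, 11.4, 9.16 and 11.7 FPKM in the inflamed tumours 1 to 5, against 17.1, 14.7, 10.6, 11.7 and 12.4 FPKM in the 5 desert tumours. The groups overlapped, with desert tumours 3 and 4 inside the inflamed range, and the gene sat at the threshold (difference -0.31 on the log2 scale, SE 0.12, limma adjusted p = 0.0499). It lost the call when any of inflamed tumours 1, 2, 3 and 4 or of desert tumours 1, 2 and 5 was left out (adjusted p = 0.0553 to 0.109, with 1.77e-04 to 1 over its alternatives). Pms2, the endonuclease subunit that acts after recognition, was at 1.45, 1.64, 1.59, 1.35 and 1.72 FPKM in the inflamed tumours 1 to 5, against 1.08, 1.33, 1.22, 1.24 and 1.32 FPKM in the 5 desert tumours. The groups did not overlap, with inflamed tumours higher, yet the gene was not called (difference 0.19 on the log2 scale, SE 0.09, limma adjusted p = 0.0939).

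A split by the cell cycle, using 11 members known as transcribed mainly in S phase, put 8 of 11 (72.7%) lower and 0 higher in inflamed tumours, with a median log2 difference of -0.54. Of the other 24 members 9 (37.5%) were lower and 2 higher, with a median of -0.25. Of all tested genes 31.2% were lower and 31% higher. The share called lower among the other members was thus close to the background and their share called higher (8.33%) below it. Of their 24 differences 19 were negative. After rescaling to TPM 15 of the 24 were lower and 2 higher, against 41.7% and 22.5% of all genes. With chromosome medians removed 13 were lower and 2 higher, against 33% and 28%. The 3 uncalled S phase-linked members were Brca2, Rad54l and Ung. In a list of 22 proliferation genes 18 were lower in inflamed tumours, Plk1 was higher and Mki67, Rrm2 and Tyms were not called (median -0.81). Mcm2, a subunit of the replicative helicase, was at 7.43 ± 0.960 FPKM in the inflamed and 23.2 ± 4.10 FPKM in the desert tumours, and the mitotic kinase gene Plk1 at 76.5 ± 4.05 FPKM in the inflamed and 36.4 ± 6.81 FPKM in the desert tumours (SD, n = 5 each; log2 differences -1.51 and 1.07). Mki67, the standard marker of cycling cells, was at 15.02, 18.9, 20.2, 17.9 and 29.98 FPKM in the inflamed tumours 1 to 5, against 29.4, 32.1, 28.1, 18.98 and 27.5 FPKM in the 5 desert tumours (difference -0.42 on the log2 scale, SE 0.18, limma adjusted p = 0.0680). The groups overlapped in Mki67, with inflamed tumour 5 above 4 of the desert tumours.

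The summed level of the S phase-linked members was set beside that of the proliferation genes in each tumour. The members summed to 24.6, 27.6, 27.8, 27.5 and 35.4 FPKM in inflamed tumours 1 to 5 and to 52.6, 56.3, 41.0, 42.9 and 46.2 FPKM in desert tumours 1 to 5. The proliferation genes summed to 303, 320, 314, 315 and 436 FPKM in the inflamed and to 609, 645, 451, 503 and 532 FPKM in the desert tumours. Expressed as a share, the S phase-linked members held 8.49% ± 0.341 of the proliferation sum in inflamed and 8.74% ± 0.215 in desert tumours (SD, n = 5 each), and the ranges of 8.12% to 8.86% and 8.53% to 9.10% overlapped. Library scaling cancels in this share. The proliferation sum includes Plk1, which was higher in inflamed tumours, whereas 18 of the 22 genes were lower. Plk1 therefore lowers the share in inflamed tumours more than in desert tumours, and the near-equal shares depend on it. Shares without Plk1 were not computed. Within the types, inflamed tumour 5 had the highest value of its group in 9 of the 11 S phase-linked members and the highest proliferation sum, and desert tumour 2 had the highest value in 7 of 11 and the highest sum of its group. For the other 24 members the share was 34.1% ± 4.62 in inflamed and 31.0% ± 5.89 in desert tumours, with a wider spread within each type. The part of proliferation in the member differences was not tested further.

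**Figure D3:**
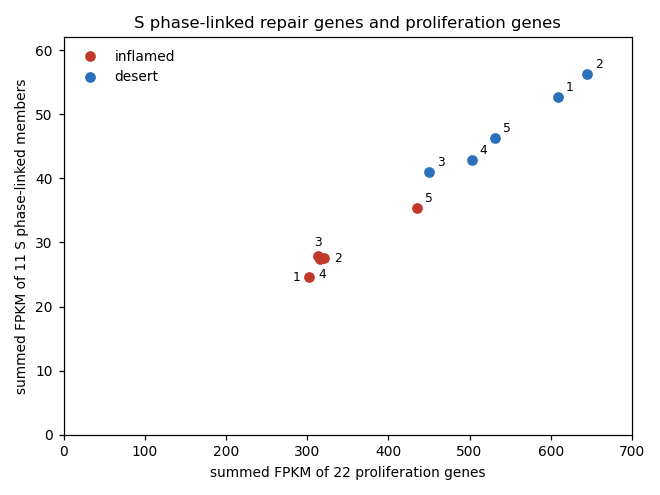
Summed FPKM of the 11 S phase-linked members (vertical) against the summed FPKM of the 22 proliferation genes (horizontal), 1 point per tumour, numbered by tumour, inflamed in red and desert in blue. Both axes start at 0; inflamed tumours lie between 24.6 and 35.4 on the vertical axis, all below the desert tumours at 41.0 to 56.3.

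Ratios between partners within a tumour do not depend on library scaling apart from the pseudocount, and 10 pairs were tested by exact permutation of the 10 tumours (two-sided, lowest reachable p 0.00794). Chek1 over Chek2 was at a log2 ratio of -0.71, -0.87, -1.20, -1.11 and -0.90 in inflamed tumours 1 to 5 and of 0.56, 0.15, 0.14, 0.11 and 0.01 in desert tumours 1 to 5. The types differed by -1.15 in this ratio (exact permutation p = 0.00794, adjusted p = 0.0397 over the 10 pairs). Chek2 was thus the more abundant of the pair in every inflamed tumour. In the desert tumours Chek1 was above Chek2 or level with it, at 3.38 against 3.36 FPKM in desert tumour 5. Atr over Atm was at -0.93 ± 0.12 in inflamed and -1.21 ± 0.0988 in desert tumours (SD, n = 5 each), without overlap on the log2(FPKM + 1) scale (difference 0.28, exact permutation p = 0.00794, adjusted p = 0.0397). No other pair passed. Palb2 over Brca2 came closest (difference -0.26, exact permutation p = 0.0238, adjusted p = 0.0794), and Fanci over Fancd2 differed by -0.26 (exact permutation p = 0.151, adjusted p = 0.377). Where both partners were lower, the ratios overlapped: on the linear scale Bard1 over Brca1 was 0.645 ± 0.138 in inflamed and 0.638 ± 0.0549 in desert tumours, and Xrcc1 over Parp1 was 0.425 ± 0.0394 in inflamed and 0.427 ± 0.120 in desert tumours (SD, n = 5 each). Xrcc6 over Xrcc5 was 0.410 ± 0.0735 in inflamed and 0.428 ± 0.0444 in desert tumours. The 6 pairs other than these 4 had exact permutation p from 0.246 to 0.825, which does not show that the ratios were the same. With no pseudocount the Atr over Atm groups overlapped, at 0.294 in inflamed tumour 4 and 0.333 in desert tumour 3 on the linear scale, and neither called pair passed (adjusted p = 0.0794 for both). No pair was called either without inflamed tumour 1, inflamed tumour 3, desert tumour 2 or desert tumour 4.

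**Figure D4:**
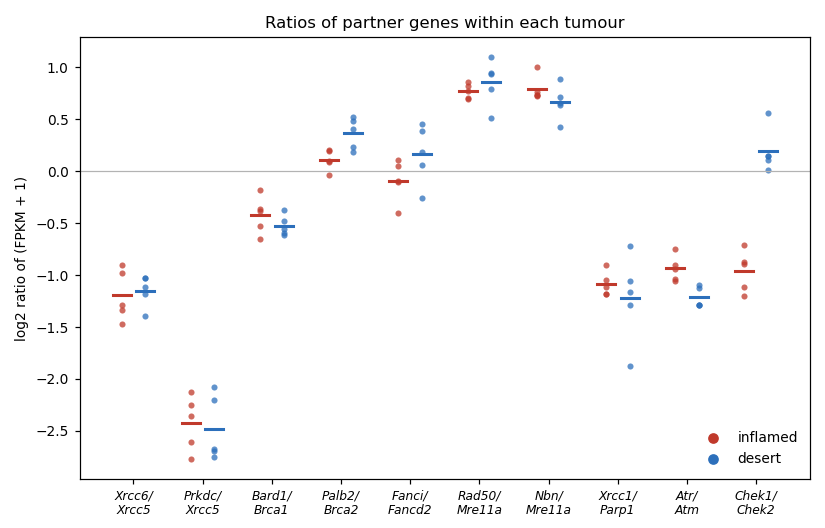
Log2 ratio of (FPKM + 1) of 10 partner pairs in each tumour, inflamed (red) left of desert (blue), with bars for the means of 5. Chek1/Chek2 separates the groups by 1.15 log2 units, at -0.96 against 0.19, while most other pairs overlap.

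The members lie on chromosomes whose genes as a whole differed in direction between the tumour types. The median log2 difference of all tested genes ran from -0.37 on chromosome 18 to 0.35 on chromosome 5 among the nuclear chromosomes, and chromosome 7, at -0.30, was the third lowest. On chromosome 7 lie 6 members, Palb2, Blm, Fanci, Xrcc1, Ercc1 and Mgmt, and 5 of them were lower in inflamed tumours, with a median of -1.37, where 46.4% of the 1289 tested genes of that chromosome were lower. Of the 5 members on chromosome 5 (Chek2, Brca2, Xrcc2, Pms2 and Ung), Chek2 was higher and none lower, where 53.5% of the chromosome's genes were higher. Over the set, 14 of the 19 members on chromosomes with a median below 0 were lower and 0 higher. Of all tested genes, 34.2% to 49.3% were lower on each of these chromosomes and 17.9% to 29.7% higher. On chromosomes with a median above 0, 3 of the 16 members were lower and 2 higher, against 10.8% to 29.0% and 28.3% to 53.5% of genes. The medians come from the same comparison, so more lower genes on chromosomes with a low median are built into this split. Without the genes of chromosome 7, an alternative chosen after the data had been seen, 12 of 29 members were lower and 2 higher. Of all 15461 genes tested in that fit, 4621 were lower and 4920 higher. Copy number was not measured in these data.

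When each library was centred on the median of each chromosome, 22 members were lower and 2 higher, against 33% and 28% of all genes. Some calls changed. Polk kept its rise at 0.57 (adjusted p = 0.00661), with 5.76e-04 to 1 over its alternatives and a call in 22 of 23. Chek2 lost its call at 0.15 (adjusted p = 0.315), with 3.72e-04 to 1 over its alternatives and a call in 21 of 23. Ddb2 became the other member called higher. Rad50 at -0.16 (adjusted p = 0.169) and Xrcc6 at -0.06 (adjusted p = 0.551) were no longer called lower (0.00118 to 1 and 2.41e-04 to 1 over their alternatives). Called lower in this fit but not in the first were 7 members, namely Atm at -0.57 (adjusted p = 0.00259), Brca2 at -0.48 (adjusted p = 0.00595), Xrcc2 at -0.51 (adjusted p = 0.00239), Nbn at -0.36 (adjusted p = 0.0163), Ogg1 at -0.49 (adjusted p = 0.00606), Sesn2 at -0.31 (adjusted p = 0.0336) and Pms2 at -0.28 (adjusted p = 0.0165). Over the alternatives the adjusted p of each reached 1 with the fold change floor of 2, which tests for a larger difference. Mgmt, Blm, Xrcc1, Fanci and Parp1 stayed lower by 1.11 to 1.48 log2 units (adjusted p at most 4.40e-05 in this fit, and at most 0.172 over the alternatives, the highest for Fanci with the fold change floor of 2).

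**Figure D5:**
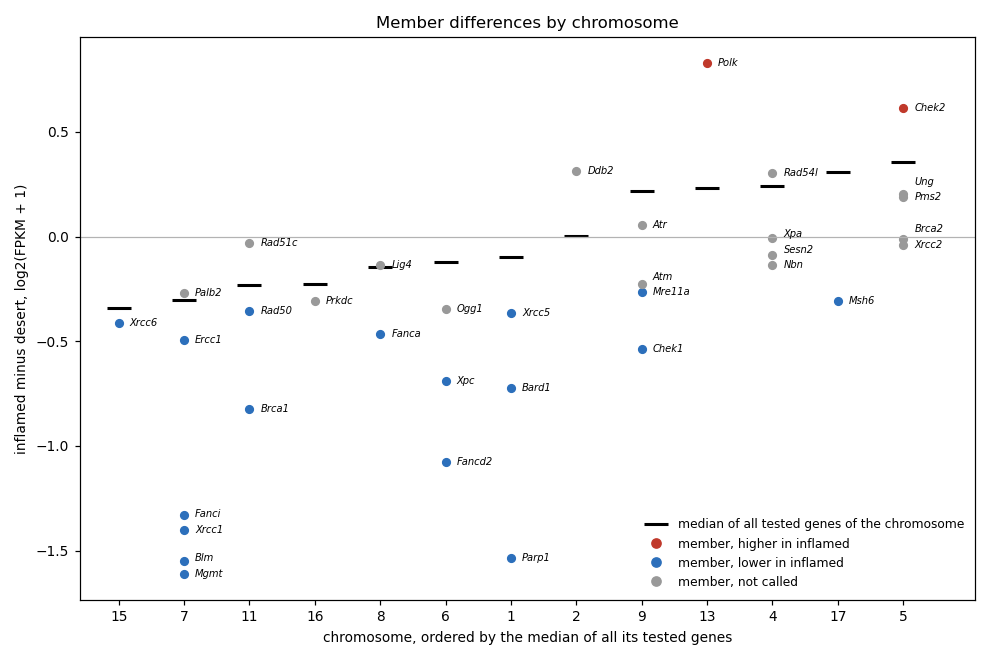
Log2 difference of each member, inflamed minus desert, by chromosome, with chromosomes ordered by the median of all their tested genes (black bars). Members on chromosome 7 reach -1.61 below a chromosome median of -0.30, and members on chromosome 5 lie near or below its median of 0.35 apart from Chek2 at 0.62.

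Repair genes outside the 35 were mostly lower in inflamed tumours as well. Of 112 further genes of the same routes, 68 (60.7%) were lower, 6 (5.36%) higher and 38 not called, with a median log2 difference of -0.39, against the backgrounds of 31.2% and 31%. After rescaling to TPM 85 were lower and 1 higher, against 41.7% and 22.5% of all genes. Of 23 further recombination genes 16 were lower, led by Rpa1, a subunit of the single-strand binding protein RPA, at 11.8 ± 1.14 FPKM in the inflamed and 48.9 ± 7.76 FPKM in the desert tumours (SD, n = 5 each) (difference -1.95 on the log2 scale, SE 0.11, limma adjusted p = 1.29e-07). Of 19 further base excision and single-strand break genes 14 were lower, with the replicative ligase gene Lig1 at 12.9 ± 2.06 FPKM in the inflamed and 33.6 ± 5.39 FPKM in the desert tumours (difference -1.32 on the log2 scale, SE 0.13, limma adjusted p = 7.79e-06), and Parp2, a paralog of Parp1, was higher at 10.9 ± 0.916 FPKM in the inflamed and 8.09 ± 0.577 FPKM in the desert tumours (difference 0.39 on the log2 scale, SE 0.08, limma adjusted p = 0.00127). The difference in direction between Parp1 and Parp2 was not tested.

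For the counts by route that follow, the background is 31.2% of all tested genes lower and 31% higher. Among 14 further sensing and signalling genes 9 were lower, with the fork protection gene Timeless at 3.18 ± 0.225 FPKM in the inflamed and 12.2 ± 1.88 FPKM in the desert tumours (log2 difference -1.65, adjusted p = 2.48e-07). Of 11 further Fanconi genes 6 were lower, with the translocase gene Fancm at 1.30 ± 0.220 FPKM in the inflamed and 3.94 ± 0.796 FPKM in the desert tumours (-1.09, adjusted p = 2.59e-05), and the core complex gene Fance was higher at 6.13 ± 0.584 FPKM in the inflamed and 4.09 ± 0.289 FPKM in the desert tumours (0.48, adjusted p = 3.71e-04). Of 10 further end joining genes 4 (40%) were lower and 2 (20%) higher, with a median log2 difference of -0.05. This route was thus not mostly lower, and its shares lay near the background. Polq, the polymerase of alternative end joining, was at 0.942 ± 0.366 FPKM in the inflamed and 2.34 ± 0.233 FPKM in the desert tumours (-0.80, adjusted p = 3.06e-04), and Paxx, a cofactor of Ku, at 6.11 ± 1.48 FPKM in the inflamed and 3.96 ± 0.611 FPKM in the desert tumours (0.50, adjusted p = 0.0125). Of 5 further mismatch repair genes 3 were lower and 0 higher. Of 19 further nucleotide excision genes 10 were lower, with the helicase gene Ercc2 at 4.59 ± 0.512 FPKM in the inflamed and 10.9 ± 0.984 FPKM in the desert tumours (-1.09, adjusted p = 1.80e-06), and Gtf2h5, a small subunit of TFIIH, was higher at 8.87 ± 0.550 FPKM in the inflamed and 6.90 ± 0.666 FPKM in the desert tumours (0.32, adjusted p = 0.00481). Of 11 further genes of direct reversal and translesion synthesis 6 were lower, with Rev3l, the catalytic subunit of polymerase zeta, at 6.21 ± 1.34 FPKM in the inflamed and 11.8 ± 2.55 FPKM in the desert tumours (-0.82, adjusted p = 0.00193). Mad2l2, another subunit of that polymerase, was higher at 7.002 ± 2.19 FPKM in the inflamed and 2.94 ± 0.238 FPKM in the desert tumours (SD, n = 5 each throughout; 0.98, adjusted p = 6.54e-04). Mad2l2 was the 1 gene of these lists still called higher after rescaling to TPM (0.84), and it stood beside Polk as a raised translesion gene while Rev3l was lower.

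Spread within a type was modest. The coefficient of variation of a member over 5 tumours had a median of 15.4% in inflamed and 18.7% in desert tumours. It ran from 7.07% for Xrcc6 to 40.2% for Bard1 in inflamed tumours, and from 8.27% for Pms2 to 27.7% for Parp1 in desert tumours. Inflamed tumour 5 held the highest value of its group in 19 members and inflamed tumour 4 the lowest in 14, while desert tumour 2 held the highest of its group in 13. The labels do not state whether libraries were stranded, and 13 members overlap an expressed neighbour in the table. For Fanci that neighbour is Polg, at 5.28 ± 0.733 FPKM in the inflamed and 9.22 ± 0.695 FPKM in the desert tumours. For Blm it is the pseudogene Ndufab1-ps, at 6.57 ± 1.78 FPKM in the inflamed and 5.46 ± 2.08 FPKM in the desert tumours, and for Polk it is Gm17622, at 4.58 ± 2.34 FPKM in the inflamed and 1.85 ± 0.841 FPKM in the desert tumours (SD, n = 5 each). These neighbours lie on the opposite strand, and Polk and Gm17622 share 388 bases. What they contribute to the members' values was not tested.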

How the data were processed

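The authors deposited FPKM per gene in a single table with a column for each tumour. The submitters' processing notes name the build mm10. Aligner, counter and annotation are not given in the sources used here. Of the 35 members 2 had the start that GENCODE M21 (GRCm38) gives, so positions are printed as deposited, with no build named. Within a library, FPKM multiplied by gene length came in steps of a fixed size (100% of values above 0 were whole within 0.01), and reads were recovered from these steps.

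Genes with a mean of at least 0.5 FPKM were tested on log2(FPKM + 1), where differences of low genes come out too small. The test was limma 3.58.1 under R 4.3.3 (data.table, version 1.17.8), two-sided, with a trend, robust moderation and tumour type as its sole term. Adjusted p under 0.05 over all 16750 genes was the threshold, and differences are inflamed minus desert. The test was checked on simulated data. Members, lists and alternatives were chosen with earlier results of these data known. Per-tumour values are given for called members, partner pairs and some uncalled members. Of each further list the largest called rise and fall are named, apart from 1 that is not reported here. Alternatives changed the pseudocount, filter, scaling, moderation, fold threshold, weights, model (voom on recovered reads), tumour number as a block and libraries left out. In the lists 2 symbols were corrected to Clspn and H2ax.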

Additional observations from a re-analysis of the deposited data

Results flagged for a closer look

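In 5 of 70 groups of 5 tumours (each member in each tumour type), 1 tumour stood apart from the other 4 by Dixon's criterion. Chance flags about 5% of such groups. Brca1 stood at 3.77 FPKM in inflamed tumour 5, with 2.06 to 2.31 FPKM in the other inflamed tumours, and without that tumour its log2 difference was -0.94, against -0.82 with it. Blm stood at 1.83 FPKM in the same tumour, with 1.21 to 1.38 FPKM in the other inflamed tumours, with a log2 difference of -1.61 without it and -1.55 with it. Atr stood at 0.773 FPKM in inflamed tumour 4, with 1.27 to 1.45 FPKM in the other inflamed tumours. Ogg1 stood at 3.69 FPKM in inflamed tumour 2, with 4.48 to 4.64 FPKM in the other inflamed tumours. Fancd2 stood at 2.91 FPKM in desert tumour 1, with 3.87 to 4.20 FPKM in the other desert tumours, with a log2 difference of -1.15 without it and -1.08 with it.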

How the results depend on the processing

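With a mean of at least 5 FPKM, which left 11 members and 8466 genes, 0 members were higher and 8 lower, and 2784 genes were higher and 3070 lower. With the fold change floor of 2 these counts were 0 and 4 members and 1137 and 643 genes. Over the other alternatives that tested all 35 members, members lower numbered 14 to 23 and members higher 2 or 3. Without the genes of chromosome 7 only 29 members were tested, and 12 were lower and 2 higher. Leaving out 1 library gave 14 to 19 members lower and 2 to 3 higher, and 4911 to 5134 genes lower and 4829 to 5225 higher. Voom on recovered reads called 2 members higher and 20 lower, and 5221 genes higher and 5787 lower. Rescaling to TPM gave 3769 genes higher and 6989 lower. Of the 10 partner ratios, 2 were called, 0 with a pseudocount of 0.1, 0 with none, and 0 to 3 without 1 library. A single pair at the lowest reachable p cannot pass on its own over 10 pairs.

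The numbers 1 to 5 are shared by both types, but same-numbered tumours did not deviate together (correlations of -0.0737 to 0.0763). The labels do not say whether the numbers pair the tumours, and these correlations cannot settle it. With the tumour number as a block 2 members were higher and 15 lower, and 4958 genes higher and 4967 lower.

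Signs turned only in uncalled differences, apart from Gtf2h5, and with a call for Pms2. Removal of chromosome medians gave Atr -0.29, Rad51c 0.17, Pms2 -0.28 (adjusted p = 0.0165, with 0.0165 to 1 over its alternatives), Ung -0.27 and Gtf2h5 -0.025. TPM gave Atr -0.16 and Ung -0.020, quantile normalization Atr -0.12, median-of-ratios scaling Brca2 0.0060 and Xpa 0.024, and array weights Xrcc2 0.0087. Leaving out 1 library gave ranges of -0.021 to 0.14 for Atr, -0.083 to 0.052 for Brca2, -0.090 to 0.020 for Rad51c, -0.083 to 0.013 for Xrcc2 and -0.079 to 0.069 for Xpa. The same ranges were -0.017 to 0.16 for the Prkdc/Xrcc5 ratio, -0.12 to 0.023 for the Xrcc6/Xrcc5 ratio and -0.027 to 0.26 for the Xrcc1/Parp1 ratio. The Prkdc/Xrcc5 ratio was -0.014 with a pseudocount of 0.1 and -0.025 with none, and the Bard1/Brca1 ratio was -0.0067 with none. The causes of these turns were not tested. The low counts behind Mgmt and Rad51c (as few as 22 and 23 reads) limit their precision.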

Other observations

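Of 19 tested genes that p53 is known to activate, members and Trp53 left out, 7 (36.8%) were higher, 6 (31.6%) lower and 6 not called in inflamed tumours, with a median log2 difference of 0.25. These shares lie near those of all tested genes, of which 31% were higher and 31.2% lower. Pmaip1, a pro-apoptotic BH3 gene, was at 10.5 ± 1.97 FPKM in the inflamed and 0.427 ± 0.456 FPKM in the desert tumours, and Cdkn1a, the cell cycle inhibitor p21, at 29.6 ± 14.8 FPKM in the inflamed and 5.12 ± 3.23 FPKM in the desert tumours (limma adjusted p = 3.00e-07 and 1.89e-04). Bbc3, another pro-apoptotic BH3 gene, was lower, at 2.80 ± 0.560 FPKM in the inflamed and 11.5 ± 4.82 FPKM in the desert tumours (limma adjusted p = 1.23e-04). Mdm2, the ubiquitin ligase of p53, was at 12.1 ± 0.904 FPKM in the inflamed and 10.3 ± 2.12 FPKM in the desert tumours and not called (SD, n = 5 each; limma adjusted p = 0.116). Trp53 itself was higher (log2 difference 1.43), but whole-gene values do not measure the loss of floxed exons. Pmaip1 and Bbc3 had the largest rise and fall of the list, and Cdkn1a, Mdm2 and Trp53 were chosen after their values were seen.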
